A study of Mus musculus with 16 samples.

Results

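Dlk1, Meg3 and Rian are neighbours in the imprinted Dlk1-Dio3 domain of mouse chromosome 12. They were taken by symbol from the 4 deposited tables of colon genes, and make up 3 of the 5171 distinct genes in those tables. All 3 stood in the table of KO against WT control mice. Dlk1 was also in the table of KO against WT colitis mice, and Meg3 in the table of colitis in KO mice. The genes were chosen for these differences between group means, so their values are given as a description with no test.

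The study asked how loss of Smarcad1, a chromatin remodelling ATPase, alters the colon and its response to colitis. All mice were C57BL/6 and, by the study's methods, male. In the KO, floxed Smarcad1 was deleted by Cre recombinase under the villin promoter, which is active in the intestinal epithelium only, so other cells of the tissue kept the gene. Microbiota from another animal facility was given to both genotypes, with bedding transfer beginning 2 weeks ahead of colitis induction. The control groups had no further treatment (3 WT and 3 KO libraries), and the colitis groups drank 1% dextran sodium sulphate (DSS), which injures the gut lining and causes inflammation, with collection after 15 days (5 WT and 5 KO libraries). Their age was not given in the sources used here. RNA came from ground colon, which holds muscle, nerve, connective and immune cells beside the epithelium, and in such bulk samples fewer cells of a type and less RNA per cell cannot be told apart. The values are means over the libraries of a group of log2 RPM (reads per library total in M), without correction for gene length and without a spread between mice. The geometric mean library size ranged from 8.005 to 10.1 M reads, and 3 reads per library equalled −1.75 to −1.42 log2 RPM. Smarcad1 itself was at 5.77 and 4.59 log2 RPM in untreated WT and KO, and at 5.68 and 4.55 in WT and KO with colitis.

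Imprinted genes are expressed mainly from the copy inherited from one parent. In this domain the paternal chromosome expresses Dlk1, Rtl1 and Dio3, and the maternal chromosome expresses the non-coding RNAs Meg3, Rian and Mirg, with many microRNAs and small nucleolar RNAs (snoRNAs) processed from them. The choice of parent is set by DNA methylation of a region between Dlk1 and Meg3, which the zinc finger protein ZFP57 and H3K9me3 help to keep. Dlk1 encodes a membrane protein with EGF repeats that is related to Notch ligands and holds back the differentiation of preadipocytes. Meg3 is a long non-coding RNA that stays largely in the nucleus, and Rian is the host transcript of a cluster of C/D box snoRNAs. These genes are active in the embryo and are kept at low levels in many adult tissues, with nerve and endocrine cells among the exceptions.

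On GRCm38, protein coding Dlk1 lies at chr12:109452823-109463336, Meg3 at chr12:109541001-109571726 and Rian at chr12:109603940-109661716, all on the plus strand. The gap from Dlk1 to Meg3 is 77.7 kb and the gap from Meg3 to Rian is 32.2 kb, so the 3 genes span 208.9 kb. The GENCODE annotation of the same build places 2 microRNA genes within Meg3. Within Rian it places 4 microRNA and 13 snoRNA genes, and the deposited row of Rian names the short RNA gene Gm27350, which overlaps its start, as its feature. Reads over such nested genes may count for the host as well. Of 123 genes annotated in the wider domain, 69 are microRNA genes, and 5 of the 123 are in the tables.

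**Figure D1:**
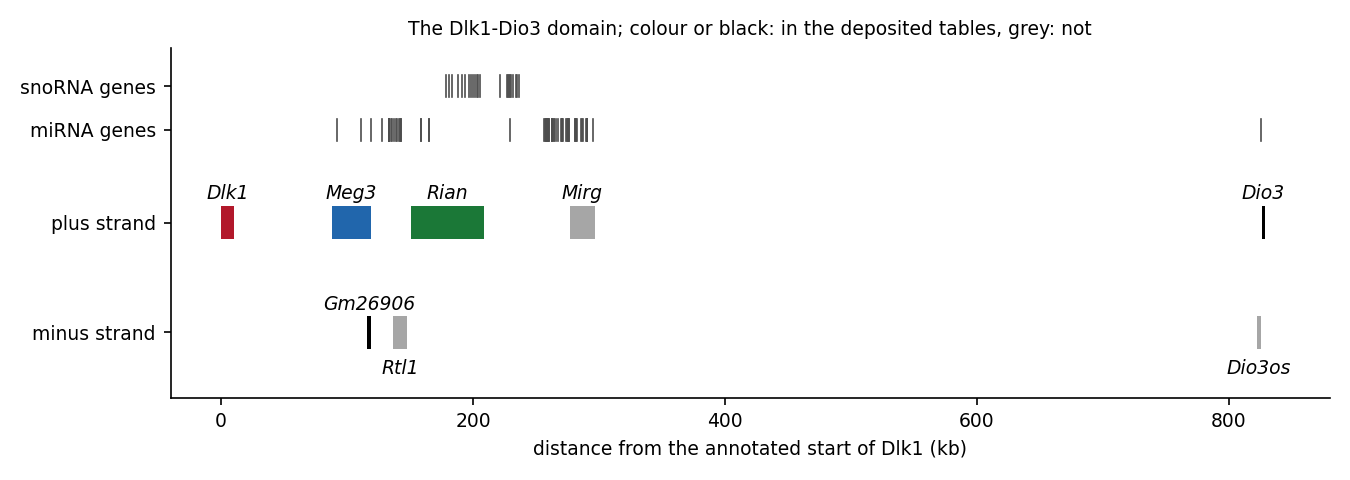
Map of the Dlk1-Dio3 domain, with distance from the annotated start of Dlk1 in kb on the x axis and strand or class of small RNA gene on the y axis. Coloured bars are Dlk1, Meg3 and Rian, black bars are Gm26906 and Dio3, which are in the tables, grey bars are genes not in them, and ticks are microRNA and snoRNA genes. Dlk1, Meg3 and Rian lie within 208.9 kb, and Dio3 begins 617.4 kb after the end of Rian.

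The promoter windows of the 3 genes are shown because they were higher together in KO control colon. Each holds 250 bases before and 50 bases from the annotated start (RefSeq, GRCm38.p6, plus strand). Capitals mark matches, on either strand, to the cAMP response element TGACGTCA, to TATAAA (reverse complement TTTATA) and to the ZFP57 hexamer TGCCGC (reverse complement GCGGCA).
Dlk1, chr12:109452573-109452872: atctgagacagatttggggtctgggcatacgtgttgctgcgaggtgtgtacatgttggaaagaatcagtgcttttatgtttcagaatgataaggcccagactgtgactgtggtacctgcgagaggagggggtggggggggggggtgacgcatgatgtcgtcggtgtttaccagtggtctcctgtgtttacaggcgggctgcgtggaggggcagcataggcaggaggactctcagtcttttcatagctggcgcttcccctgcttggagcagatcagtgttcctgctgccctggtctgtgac
Meg3, chr12:109540746-109541045: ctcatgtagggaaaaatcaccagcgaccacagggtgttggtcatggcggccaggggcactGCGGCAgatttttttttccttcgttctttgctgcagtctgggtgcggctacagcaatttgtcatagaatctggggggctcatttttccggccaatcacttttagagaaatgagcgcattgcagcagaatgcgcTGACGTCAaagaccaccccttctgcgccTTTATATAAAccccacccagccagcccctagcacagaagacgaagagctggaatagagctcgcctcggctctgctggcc
Rian, chr12:109603695-109603994: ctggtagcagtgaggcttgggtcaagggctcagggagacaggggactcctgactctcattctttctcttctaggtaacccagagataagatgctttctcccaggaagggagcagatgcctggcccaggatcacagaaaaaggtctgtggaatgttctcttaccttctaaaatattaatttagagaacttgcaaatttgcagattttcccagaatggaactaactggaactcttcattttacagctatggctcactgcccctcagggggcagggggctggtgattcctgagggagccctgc
RefSeq gives Meg3 another start, at chr12:109545148-109545447, whose window had 1 CpG and none of the motifs and is not shown. The Meg3 window above held all 3 motifs, with TATAAA and its overlapping reverse complement counted as 1 motif, and the Dlk1 and Rian windows held none of them. Of 32851 promoter windows of this length, 1.79% held TGACGTCA, 13.6% held TATAAA and 11.6% held TGCCGC, in each case on either strand. The Meg3 window shown had 13 CpG, the Dlk1 window 9 and the Rian window 0, against a median of 7 over all windows. A match is a string of letters and shows no binding.

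In untreated mice, all 3 genes were higher in KO than in WT colon. The Dlk1 mean was 2.10 log2 RPM for WT control against 3.79 for KO control, a difference of 1.69 (3.22-fold), which placed it 15th from the highest of the 5171 genes. The Meg3 mean was 5.82 against 6.48, a difference of 0.65 (1.57-fold). The Rian mean was 5.70 against 6.29, a difference of 0.60 (1.51-fold). The non-coding pair thus shared a difference of nearly the same size, and that of Dlk1 was larger. Rian lay just above the fold of 1.5 used for counts (0.58 on the log2 scale), and Meg3 lay a little further above it.

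These means carry counting error as well as the spread between mice, which they do not show. Dlk1 corresponded to about 43.4 reads per library in WT control and 135.2 in KO control, Meg3 to 571.9 and 869.0, and Rian to 524.8 and 765.8. From counting alone, the 95% interval of the KO minus WT control difference was 1.40 to 1.97 for Dlk1, 0.57 to 0.74 for Meg3 and 0.50 to 0.69 for Rian. All 3 genes were past 1.5-fold upwards, where 2.98% of all listed genes were, and 2.42% were past it downwards. All 3 stood in the authors' table for this comparison, as did 0.89% of all listed genes. The rule picked the genes on this contrast, so nothing is read from these counts. The median difference over all listed genes was 0.00.

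**Figure D2:**
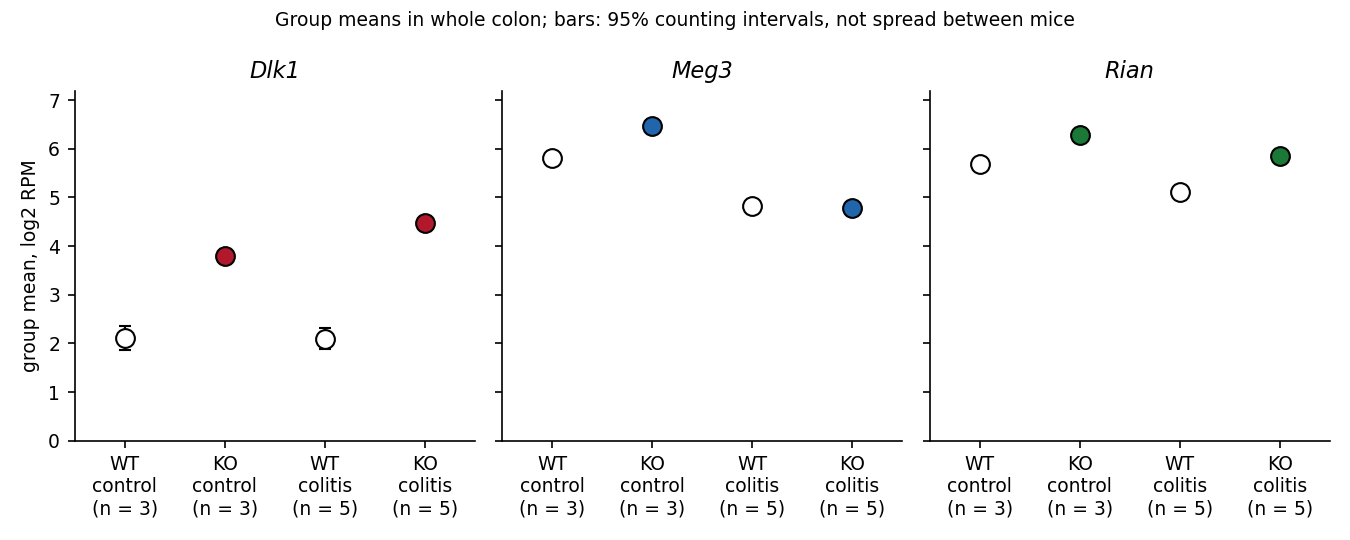
Group means of Dlk1, Meg3 and Rian in log2 RPM (y axis) for the 4 groups (x axis, with the number of libraries); open points are WT and filled points are KO. Bars are 95% counting intervals, visible beyond the point for Dlk1 in WT, and do not show the spread between mice. Dlk1 was higher in KO in both states, Rian was higher in KO in both states by a smaller step, and the Meg3 mean was higher in KO among control mice and nearly equal in colitis.

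In colitis the 3 genes parted. Dlk1 was at 2.09 log2 RPM in WT colitis and 4.47 in KO colitis, a difference of 2.38 (5.19-fold) with a counting interval of 2.14 to 2.61. Rian was at 5.12 in WT colitis and 5.85 in KO colitis, a difference of 0.73 (1.66-fold) with a counting interval of 0.64 to 0.82. Meg3 was at 4.82 in WT colitis and 4.78 in KO colitis, a difference of −0.05 with a counting interval of −0.16 to 0.07. Dlk1 and Rian were thus higher in KO colitis, and the Meg3 means lay within counting error of each other. Dlk1 and Rian were past 1.5-fold upwards, where 3.98% of all listed genes were. None of the 3 was past it downwards, where 8.26% were. Dlk1 alone of the 3 was in the authors' table for this comparison, which held 1.08% of all listed genes.

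**Figure D3:**
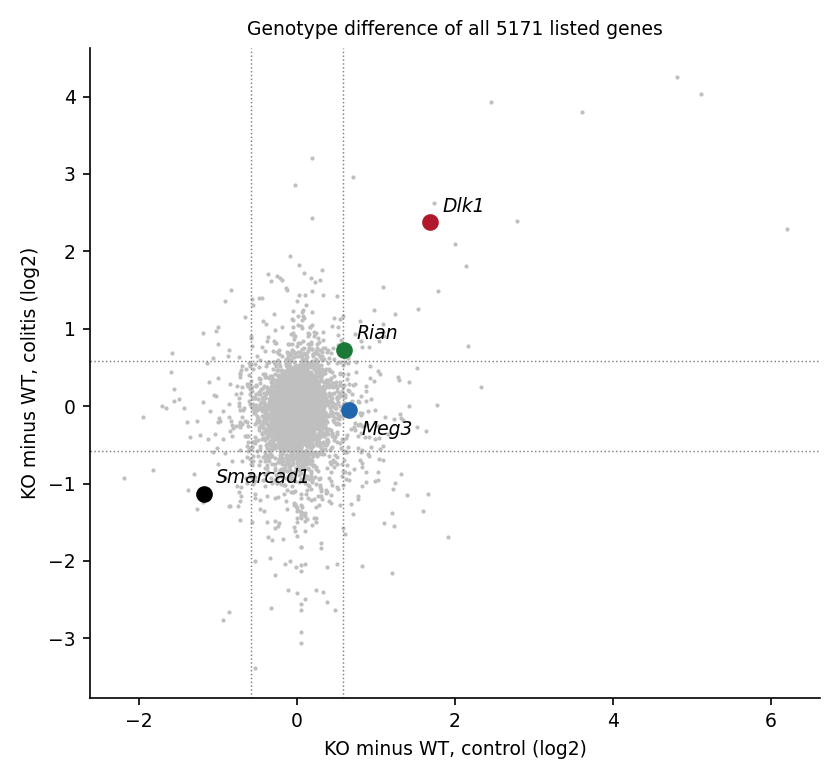
KO minus WT difference (log2) in control mice (x axis) against that in colitis (y axis) for the 5171 listed genes (grey points), with dotted lines at 1.5-fold. Dlk1 lies at 1.69 and 2.38, Rian at 0.60 and 0.73, Meg3 at 0.65 and −0.05, and Smarcad1 at −1.18 and −1.13.

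The same means can be read along the colitis response, although these comparisons share groups with those above and add no independent evidence. Dlk1 was nearly equal in WT control and WT colitis, with a difference of −0.01 and a counting interval of −0.34 to 0.32. In KO it was higher in colitis by 0.68 (1.60-fold). Meg3 was 2.00-fold lower in colitis than in control in WT and 3.25-fold lower in KO (−1.00 and −1.70). Rian was lower in colitis by 0.58 in WT and by 0.44 in KO, which is 1.49-fold and 1.36-fold. Meg3 and Rian were therefore lower in colitis in both genotypes, and Dlk1 was not.

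The colitis change in KO minus that in WT was 0.69 for Dlk1, −0.70 for Meg3 and 0.14 for Rian, against a median of −0.02 over all listed genes. Of all listed genes, 3.89% had a value as high as that of Dlk1, 7.46% a value as low as that of Meg3, and 28.4% a value as high as that of Rian. Whether the genotypes differed in these changes beyond the spread between mice was not tested.

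For colitis in WT, Meg3 alone of the 3 was lower by at least 1.5-fold, where 26.3% of all listed genes were, and Rian lay just short of that fold. None of the 3 was higher by at least 1.5-fold, where 27.7% were, and none was in the authors' table, which held 63.1% of all listed genes. For colitis in KO, Meg3 was lower, as were 26.2%, and Dlk1 was higher, as were 24.6%. Meg3 alone was in that table, which held 78.4%. The medians over all listed genes were 0.13 for colitis in WT and 0.19 for colitis in KO. With those medians subtracted, the Meg3 differences became −1.13 and −1.89 and the Rian differences −0.71 and −0.63.

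The balance between the genes shifted across the groups. Per length, with the merged exons of all annotated transcripts (5657 bases for Dlk1, 18089 for Meg3 and 18234 for Rian), Meg3 was at 1.64 log2 RPKM in untreated WT and 2.30 in untreated KO, and at 0.64 in WT colitis against 0.60 in KO colitis. Rian was at 1.51, 2.10, 0.93 and 1.66 log2 RPKM in the same order. Dlk1 was at −0.40, 1.29, −0.41 and 1.97 log2 RPKM. In WT control the order of RPKM levels was thus Meg3, Rian and Dlk1, with Meg3 and Rian within 0.14 of each other and Dlk1 4.12-fold under Meg3. In KO colitis the order of RPKM levels was reversed, with Dlk1 1.24-fold above Rian and 2.59-fold above Meg3. This reversal rests on the lengths. Without them Dlk1 was still the lowest in KO colitis, at 4.47 log2 RPM against 4.78 for Meg3 and 5.85 for Rian. Rian minus Meg3 on the log2 RPKM scale went from −0.14 and −0.19 in WT and KO control to 0.29 in WT colitis and 1.06 in KO colitis. These lengths assume that every annotated exon is used, which the files do not show.

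Gm26906, an antisense long non-coding RNA gene over the end of Meg3 (chr12:109568628-109571723, minus strand), was also in the tables. It lies outside the rule for named genes and is given because all 1228 of its exonic bases lie within exons of Meg3. Its untreated means were 2.36 (WT) and 2.96 (KO) log2 RPM, and its colitis means 1.78 (WT) and 1.90 (KO). KO minus WT was 0.61 in control and 0.12 in colitis, and the difference of colitis from control was −0.58 (WT) and −1.07 (KO). The signs matched those of Meg3 except for KO minus WT in colitis, where both differences were near 0. Strand-specific counting is not stated in the sources used here, so reads of Gm26906 and Meg3 cannot be told apart.

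Of the 17 genes on the list of the domain and its flanks, 8 were in the tables. Dio3, which encodes the deiodinase that inactivates thyroid hormone, is the only other protein coding imprinted gene of the domain among them. Its untreated means were −2.67 (WT) and −1.90 (KO) log2 RPM, and its colitis means 0.17 (WT) and −1.03 (KO). Both control means were under 3 reads per library, so no fold between the control groups is given. With control means raised to the floor of 3 reads, Dio3 was 3.78-fold higher with colitis in WT and 1.60-fold higher in KO. The counting interval of the log2 difference without raising was 1.47 to 4.20 in WT and −0.29 to 2.03 in KO. The KO difference thus lay within counting error. KO minus WT in colitis was −1.19, on about 8.98 reads per library in WT colitis and 4.83 in KO colitis. In colitis the KO mean was thus the lower one for Dio3 and the higher one for Dlk1, both of them paternally expressed.

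The nearest listed gene before Dlk1 was Wars, a tryptophanyl-tRNA synthetase gene 558.6 kb away that is known to respond to interferon. Wars was at 8.32 log2 RPM in both control groups, 9.29 in WT colitis and 9.25 in KO colitis. KO minus WT was 0.00 in control and −0.03 in colitis. The mitochondrial carrier genes Slc25a47 and Slc25a29 had KO minus WT differences of −0.04 and −0.02 in control and 0.45 and 0.22 in colitis. Evl, a regulator of actin filaments, had −0.06 in control and 0.11 in colitis. None of these 4 flanking genes was past 1.5-fold between genotypes in either state. In control 2.98% of all listed genes were past it upwards and 2.42% downwards, and in colitis 3.98% and 8.26%. Nothing is thus read from this count.

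Imprinted genes elsewhere in the genome were set beside these differences. The lists sort them by parental copy, but the group means do not separate the copies. Which copy was expressed in colon was thus not shown for any gene. Of 30 other paternally expressed genes, 8 were in the tables, and none was past 1.5-fold between genotypes in control or in colitis. Of all listed genes, 2.98% were past it upwards and 2.42% downwards in control, and 3.98% and 8.26% in colitis. All 8 were listed through comparisons of colitis with control only, so nothing is read from this count. The largest differences of KO from WT were −0.28 for Plagl1, a zinc finger gene, in control and −0.52 for Peg3, another zinc finger gene, in colitis. The median of the 8 was −0.04 in control and −0.09 in colitis, against 0.00 and −0.01 over all listed genes. Of 31 other maternally expressed genes, 9 were in the tables. Among those above the floor in all 4 groups, Tspan32, a tetraspanin gene of blood cells, had the largest difference of KO from WT, 0.59 in control and 1.17 in colitis, on 6.60 to 26.7 reads per library. H19, a maternally expressed non-coding RNA that was under the floor in both control groups, differed more in colitis, by −1.47, on 26.1 reads per library in WT and 11.6 in KO. The median of the 9 was −0.06 in control (0.03 with means raised to the floor of 3 reads) and 0.19 in colitis. In control, 1 of these 17 genes, Tspan32, was thus past 1.5-fold upwards. In colitis 3 of the 9 maternally expressed genes were, namely Gatm (0.70), Ascl2 (0.84) and Tspan32, beside 0.73 for Rian, and H19 was past it downwards. Gatm was named after its values were seen.

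In colitis, the 8 paternally expressed genes in the tables were mostly lower. In WT 5 of the 8 and in KO 7 of the 8 were lower by at least 1.5-fold, with medians of −0.90 and −0.79. Of all listed genes, 26.3% in WT and 26.2% in KO were lower by that fold. Genes of both imprinted lists entered the tables only through a comparison of colitis with control. A change with colitis was thus a condition of being counted. Nap1l5, a nucleosome assembly protein gene, had the largest difference in WT (−1.04), and Peg3 the largest in KO (−1.23). Meg3, at −1.00 and −1.70, lay within the range of this list in WT and below it in KO. The maternally expressed list was mixed, with 3 genes higher and 1 lower in WT and 5 higher and 2 lower in KO. Of all listed genes, 27.7% in WT and 24.6% in KO were higher by at least 1.5-fold. Ascl2, a transcription factor of intestinal stem cells, had the largest difference in WT (−1.85), and Tspan32 the largest in KO (1.46), among those above the floor in all 4 groups. H19 lay further from control. With its control means raised to the floor, it was 11.0-fold higher with colitis in WT mice and 3.82-fold higher in KO mice.

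**Figure D4:**
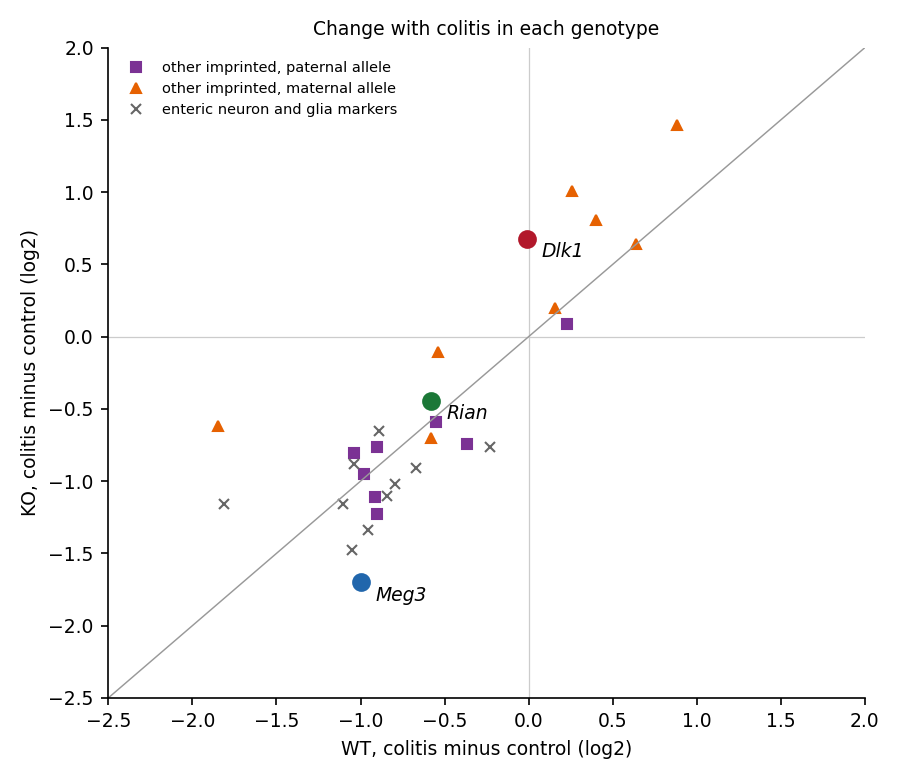
Colitis minus control difference (log2) in WT (x axis) against that in KO (y axis) for Dlk1, Meg3, Rian, other imprinted genes and enteric neuron markers, with the line of equal change; H19 is left out because its control means were under 3 reads per library. Meg3 lies at −1.00 and −1.70, Rian at −0.58 and −0.44 and Dlk1 at −0.01 and 0.68. Under 0 on both axes lie 7 of 8 paternally expressed genes and 10 of 10 neuron markers. The medians over all listed genes were 0.13 in WT and 0.19 in KO, and their share under 0 on both axes was not counted. The other imprinted genes and the markers were listed for a comparison of colitis with control.

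Since Meg3 and Rian are non-coding, other nuclear and snoRNA host RNAs were counted. Of 30 such genes, 7 were in the tables, among them Peg13 and H19, which are also on the lists of imprinted genes. In control none was higher in KO by at least 1.5-fold, where 2.98% of all listed genes were. The largest difference above the floor was 0.32 for Malat1, an abundant nuclear RNA. In colitis all 7 had lower means in KO than in WT and 4 were past 1.5-fold, as were 8.26% of all listed genes, with −1.47 for H19, −1.20 for Malat1 (8.51 log2 RPM in WT and 7.31 in KO), −1.01 for Snhg11 and −0.82 for Snhg14. The median of the 7 was −0.82, against −0.01 over all listed genes. Each of the 7 was listed only for a comparison of colitis with control, and Malat1, Snhg11 and Snhg14 only for that in KO. A change in KO colitis was thus a condition of counting these 3, and nothing is read from the count. For Rian the KO minus WT difference in colitis was 0.73, and for Meg3 it was −0.05. Colitis minus control for Malat1 was −0.22 (WT) and −1.74 (KO), beside −1.00 and −1.70 for Meg3. The low values in KO colitis were not common to all of these RNAs. KO minus WT in colitis was −0.05 for Snhg6, −0.11 for Miat and −0.15 for Peg13. Whether the Meg3 value is linked to that of any of these RNAs was not tested.

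Dlk1 is related to Notch ligands, and 6 of 35 genes of the Notch pathway were in the tables. None of the 6 was past 1.5-fold between genotypes. In control 2.98% of all listed genes were past it upwards and 2.42% downwards, and in colitis 3.98% and 8.26%. The largest differences of KO from WT were 0.14 for the ligand Jag1 in control and 0.28 for Hes6, a gene of the Hes family of transcriptional repressors, in colitis. With colitis, Notch4 was higher by 0.78 in WT and 0.61 in KO, and Dner, a neuronal gene related to Notch ligands, was lower by 0.92 in WT and 0.91 in KO. Of 31 genes that maintain imprints or H3K9me3, 4 were in the tables. Beside Smarcad1, with −1.18 and −1.13, these were the DNA methyltransferase gene Dnmt3a (0.31 in control and 0.16 in colitis), Tet2 (0.24 and −0.17), which oxidises methylated cytosine, and the Polycomb gene Suz12 (0.08 and 0.04). Zfp57, Zfp445 and Trim28 were not among the listed genes.

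Markers of cell types that whole colon can hold were set beside Dlk1, Meg3 and Rian. The bulk group means do not show which colon cells express these genes. Of 15 markers of enteric neurons and glia, 10 were in the tables, all of them neuronal, and their summed level was 309.3 (WT) and 266.9 (KO) RPM without and 176.6 (WT) and 134.4 (KO) RPM with colitis. All 10 had lower means in KO than in WT control, by 0.13 to 0.30, against a median of 0.00 over all listed genes. The share of all listed genes lower by any amount was not counted, so nothing is read from this count. All 10 were lower in colitis in both genotypes, with a median of −0.92 in WT and −1.06 in KO. The medians over all listed genes were 0.13 and 0.19. By at least 1.5-fold, 9 were lower in WT and 10 in KO, as were 26.3% and 26.2% of all listed genes. Each of the 10 was listed for a comparison of colitis with control. A change with colitis was thus a condition of being counted. Of 12 enteroendocrine markers, 6 were in the tables, at 409.7, 341.5, 419.2 and 369.5 RPM in sum in the same order. Gcg and Pyy had the largest part in this sum, at 7.13 and 6.89 log2 RPM in WT control. The sum hides a split with colitis. Gcg, Pyy and Cck were higher in both genotypes (0.27, 0.48 and 1.14 in WT), and Scg2, Scg3 and Tph1 were lower (−1.08, −0.82 and −0.97 in WT). The largest differences of KO from WT were −0.30 for Snap25 and −0.66 for Ret among neuronal markers and −0.36 for Pyy and −0.56 for Cck among enteroendocrine markers, in control and in colitis. Their part in the Dlk1, Meg3 and Rian values of either state was not tested.

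Of 16 adipocyte and preadipocyte markers, 4 were in the tables, with a summed level of 632.9 (WT) and 607.2 (KO) RPM without and 443.3 (WT) and 447.2 (KO) RPM with colitis. Pck1 had the largest part in this sum, at 8.56 log2 RPM in WT control, and Dgat2 came next at 7.06. With colitis, Dgat2 was higher by 0.56 in WT and 0.44 in KO. The other 3, Cidec, Pck1 and Cd36, were lower in both genotypes. Of the 4 markers, Cidec, a lipid droplet gene, had the largest difference of KO from WT, −0.53 in control and −0.47 in colitis. For Pck1, an enzyme of glyceroneogenesis and gluconeogenesis, it was 0.03 and 0.32. The defining genes Adipoq, Plin1 and Lep were not among the listed genes. The 4 listed smooth muscle markers of 10 summed to 4796, 4371, 3089 and 3002 RPM and the 4 listed fibroblast markers of 10 to 2118, 2092, 4254 and 3069 RPM, in the same order of groups. The largest differences of KO from WT were −0.24 and −0.15 for Mylk in smooth muscle and −0.06 for Lum and −0.63 for Col1a1 among fibroblast genes. The 2 epithelial markers of 12, Car1 and Slc26a3, summed to 5582, 5111, 2797 and 2408 RPM. KO minus WT for Car1 was −0.15 untreated and −0.81 with colitis, and for Slc26a3 it was −0.09 and 0.59. The 8 leukocyte markers of 10 summed to 226.5, 226.3, 491.3 and 443.6 RPM, with the largest differences of KO from WT at −0.78 for Cd3e in control and −0.39 for Itgam in colitis among those above the floor in all 4 groups. S100a8, a neutrophil gene under the floor in both control groups, differed more in colitis, by −2.66, at 5.54 log2 RPM in WT and 2.88 in KO. Tek, the only endothelial marker of 6 in the tables, differed by −0.11 in control and −0.38 in colitis. The part of any of these cell types in the genotype differences of Dlk1, Meg3 and Rian was not tested.

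The genes whose profiles lay closest to each of the 3 were found by the root mean square difference of the 4 centred log2 means. For Dlk1 these were Aplp1, a member of the amyloid precursor family, at 0.35, Nxf7 at 0.39 and the metallothionein gene Mt1 at 0.43. Aplp1 was at 6.28, 8.07, 6.46 and 7.95 log2 RPM, with the untreated WT and KO groups first and the WT and KO colitis groups after them. All 3 were higher in KO in both states, by 1.78 and 1.49 for Aplp1, 1.09 and 1.54 for Nxf7 and 1.53 and 1.26 for Mt1. For Meg3 they were the carboxylesterase gene Ces1g at 0.07, Gm17634 at 0.11 and Arhgap20 at 0.11. Ces1g was at 4.88, 5.68, 4.08 and 3.99 log2 RPM in the same order of groups. For Rian they were Pbld2 at 0.10, Lrig3, which encodes a membrane protein with leucine-rich repeats, at 0.11 and the glutathione transferase gene Gstm6 at 0.11. Pbld2 was at 4.87, 5.20, 4.09 and 4.94 log2 RPM. No gene of the domain was among the 3 closest to another of its genes. With 4 means per gene and 5170 candidates, such likeness is a description.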

How the data were processed

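Whole colon RNA of 16 C57BL/6 mice was sequenced on BGISEQ-500. According to the methods and submitters' notes, reads were mapped to GRCm38 with HISAT2 2.1.0, reads over ribosomal RNA were removed, and reads over merged exons were counted in SeqMonk. The removal was made because the study found ribosomal RNA contamination in some samples, which its methods do not name. The authors tested raw counts with DESeq2, and each of the 4 deposited tables holds the genes under a false discovery rate of 0.05 in 1 comparison, with those rates, which were not used. The values used here are the log2 RPM means of each group deposited by the authors; the group means allow no test, SD or exclusion of a library, and counts by sample in the study's supplement were not used. Other genes were not analysed here.

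Group means were subtracted on the log2 scale. Library size came from the lowest means, which lie on steps of whole reads (87.5% to 100% of 40 per group), with 0 reads set to 0.9. Recovery of library size was tested on simulated data. Counting intervals (95%) took the standard error of a log2 mean from its reads per library and the number of libraries. They and the floor of 3 reads cover counting error only. The members and gene lists were chosen with earlier results of these data known. Named genes were the members, Smarcad1, listed genes of the domain and its neighbours, for each other list the gene with the largest difference above the floor of 3 reads, and for each member the 3 genes of closest profile; further genes shown were chosen after their values were seen. Exon lengths came from GENCODE M21. Alternatives were other centrings, a fold of 2 and a filter of 3 reads in all groups. Python 3.11.15 with numpy 2.4.6, pandas 2.3.3 and scipy 1.17.1 was used.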

Additional observations from a re-analysis of the deposited data

How the results depend on the processing

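Of 39 alternative values for the differences of Dlk1, Meg3 and Rian, 27 moved by less than their 95% counting interval and none changed sign past the fold threshold. The 12 that moved were all differences of colitis from control. With the median of all listed genes subtracted, the value was 0.49 for Dlk1 in KO, −1.13 for Meg3 in WT, −1.89 for Meg3 in KO, −0.71 for Rian in WT and −0.63 for Rian in KO. With the median of genes of at least 100 reads subtracted, the values were 0.47, −1.13, −1.90, −0.71 and −0.65 in the same order. With the median of genes not listed in that table subtracted, Meg3 in KO was −1.55 and Rian in KO −0.30. Rian was thus past 1.5-fold in colitis only under the first 2 centrings, and Dlk1 in KO only without them. At a fold of 2, Dlk1 remained as the 1 gene of the 3 higher in KO in control and in colitis, and Meg3 in KO was the only one lower in colitis, since its WT value lay just short of 2-fold. The filter of 3 reads in all groups changed neither these counts nor the 3 genes closest to each. Leaving out a replicate was not run, since only group means were used. No paired analysis was possible because the deposited columns are group means with no replicate number.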
